A study of Homo sapiens with 2 samples.

Results

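The enzymes examined here are the 10 genes PHGDH, PSAT1, PSPH, SHMT1, SHMT2, MTHFD1, MTHFD2, MTHFD1L, MAT2A and AHCY, which make serine, pass its carbon to folate and run the methionine cycle. They were chosen by gene symbol, and each symbol matched 1 row, giving 10 of the 58174 genes listed. All 10 had at least 10 TPM (a transcript abundance corrected for gene length and set to the same total in each library) in both libraries. The RNA came from PLC-8024, a human hepatocellular carcinoma (HCC) cell line, as 1 library of control cells (PLC-8024-CTR) and 1 library of cells overexpressing human GDF1 (PLC-8024-GDF1), a secreted factor of the TGF-β superfamily. Cells were transduced with virus and kept under puromycin as a stably selected population. The sources used here do not give the construct's promoter, the number of clones or the time of harvest. With 1 library per condition there is no replicate check, so every difference describes these 2 libraries and no p-value is given. TPM keep no read counts, so the depth behind each value is unknown and no counting interval is given. In RNA from a whole culture, fewer cells expressing a gene and less RNA per cell cannot be told apart.

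Serine is made from a glycolytic intermediate by PHGDH, PSAT1 and PSPH acting in that order. The SHMT enzymes then split serine into glycine and a carbon unit on folate, SHMT1 in the cytosol and SHMT2 in mitochondria. MTHFD2 and MTHFD1L process that unit inside mitochondria and MTHFD1 does so in the cytosol, which supplies purine and thymidylate synthesis. MAT2A makes S-adenosylmethionine (SAM), the cell's methyl donor, and AHCY clears the S-adenosylhomocysteine left after methyl transfer. Many tumours rely on these enzymes for growth, whereas adult hepatocytes use MAT1A in place of MAT2A.

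All 10 enzymes were listed at a lower level in PLC-8024-GDF1 cells than in PLC-8024-CTR cells, PSPH being the exception once the trend with GC content was removed. MTHFD2 and PSAT1 differed most, and both were over 2-fold lower, a count of 2 that became 1 with rescaled TPM and 0 with the GC trend removed. The other 8 genes stayed within 2-fold, and none was over 2-fold higher. The log2 change, taken throughout as log2(TPM + 1) in GDF1-overexpressing cells minus log2(TPM + 1) in control cells, which understates the change of genes with low TPM, had a median of -0.45 over the 10 genes and ranged from -1.42 to -0.28. This shift has to be read against the whole library, since most genes were lower too. In one or both libraries 14929 genes reached 1 TPM, and of these 63.3% were lower by any amount, 9.61% were over 2-fold lower and 4.82% were over 2-fold higher, and their median log2 change was -0.20. Each of the 10 enzymes lay below that median, from -0.08 relative to it for PSPH to -1.22 for MTHFD2. All 10 are protein-coding. Among the 11792 protein-coding genes tested, the median log2 change was lower, at -0.25, which is close to that of PSPH. Of these genes 10.5% were over 2-fold lower and 4.06% over 2-fold higher. Added up, the 10 enzymes held 1109.8 TPM in control cells against 760.3 TPM in PLC-8024-GDF1 cells, which is 68.5% of the control level. By role, the summed TPM in PLC-8024-GDF1 was 65.5% of the control for the 3 serine synthesis enzymes, 69.2% for the 3 mitochondrial folate enzymes, and 70.3% for both the cytosolic folate pair and the methionine cycle pair. Each sum is weighted towards its most abundant enzyme, such as SHMT2 among the mitochondrial ones. It does not show the single genes, such as MTHFD2 at 35.1% and MTHFD1L at 77.2% of the control.

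**Figure D1:**
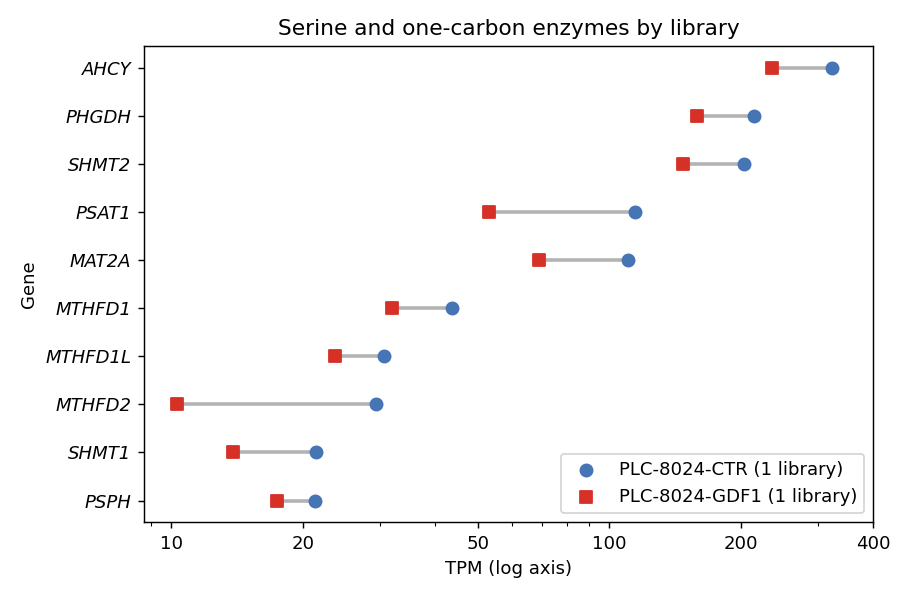
TPM of each of the 10 enzymes on a log axis, with circles for PLC-8024-CTR and squares for PLC-8024-GDF1 (1 library each) and genes ordered by their control level. In these deposited values every square lies to the left of its circle, and the gaps are widest for MTHFD2 (29.2 to 10.3 TPM) and PSAT1 (114 to 53.1 TPM).

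The introduced gene was examined as a check of the labels. The GDF1 row stood at 2.10 TPM in control cells against 4.64 TPM in PLC-8024-GDF1 cells, while CERS1, whose exons contain the GDF1 coding sequence, was listed at 13.3 and 9612 TPM. The identity of the line was checked on listed markers. All 7 hepatocyte and HCC markers reached 1 TPM in at least 1 library, with SERPINA1 at 5308 and 2915 TPM and ALB at 15.0 and 6.07 TPM. In PLC-8024-GDF1, 5 of the 7 were over 2-fold lower, against 9.61% of all genes tested. That count was taken from the deposited TPM only, and its dependence on scaling or GC content was not tested. Of the 5, HNF4A and ALB lay nearest the 2-fold limit, with log2 changes of -1.02 and -1.18. AFP was among the 5, at 31.4 and 9.75 TPM. The paper, by contrast, counts AFP as a liver progenitor marker and reports by qPCR, western blot and tumour staining that GDF1 raised such markers. It also reports that GDF1 lowered hepatic markers, ALB and TTR among them. Both were lower here too, with TTR at 7.17 and 0.34 TPM. The summed level of the 7 was 6098 TPM in control cells against 3167 TPM in PLC-8024-GDF1 cells. Among 4 epithelial markers, KRT8 (1424 and 1777 TPM) and KRT18 (1005 and 1224 TPM) were abundant, CDH1 was at 10.4 and 0.33 TPM and EPCAM was under 1 TPM in both. Of the 6 fibroblast markers, 5 were under 1 TPM in both libraries (summed level 3.80 and 2.61 TPM). The 5 immune markers summed to 332 and 227 TPM, mostly from LYZ, while PTPRC, which defines leukocytes, was listed at 0.0001 TPM, the value standing for 0, in both. The 4 endothelial markers summed to 23.5 and 22.4 TPM, nearly all from PECAM1, with VWF and KDR at 0.0001 TPM in both. The part of these markers in the enzyme values was not tested.

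The promoter windows of the enzymes with the largest differences, and of those that hold a searched motif, are shown because factors such as ATF4 and MYC are known to bind near several of these genes. RefSeq (GRCh38.p14) gave windows of 250 bases before to 50 bases after the transcription start for 8 of the 10 genes, PSPH and SHMT2 being without one in the table used here. Both strands were searched for TGATGNAA, the element read by ATF4 with C/EBP factors, and for CACGTG, the E-box read by MYC. The motifs do not overlap each other in any window shown. Capitals mark the matches, and each sequence runs 5′ to 3′ along the plus strand.
PSAT1, chr9:78296875-78297174, plus strand, no match: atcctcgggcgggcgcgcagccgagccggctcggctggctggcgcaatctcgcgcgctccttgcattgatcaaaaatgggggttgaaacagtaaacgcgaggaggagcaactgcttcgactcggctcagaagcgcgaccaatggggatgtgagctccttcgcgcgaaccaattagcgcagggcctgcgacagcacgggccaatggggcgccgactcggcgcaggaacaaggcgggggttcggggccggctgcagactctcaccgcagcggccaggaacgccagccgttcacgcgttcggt
MTHFD2, chr2:74198365-74198664, plus strand, no match: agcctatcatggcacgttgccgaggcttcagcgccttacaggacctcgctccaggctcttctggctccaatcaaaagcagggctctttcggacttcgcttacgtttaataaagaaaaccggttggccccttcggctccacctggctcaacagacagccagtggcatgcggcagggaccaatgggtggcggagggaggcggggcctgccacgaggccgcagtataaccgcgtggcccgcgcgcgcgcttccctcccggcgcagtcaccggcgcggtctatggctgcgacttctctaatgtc
MTHFD1, chr14:64388103-64388402, plus strand, 1 E-box: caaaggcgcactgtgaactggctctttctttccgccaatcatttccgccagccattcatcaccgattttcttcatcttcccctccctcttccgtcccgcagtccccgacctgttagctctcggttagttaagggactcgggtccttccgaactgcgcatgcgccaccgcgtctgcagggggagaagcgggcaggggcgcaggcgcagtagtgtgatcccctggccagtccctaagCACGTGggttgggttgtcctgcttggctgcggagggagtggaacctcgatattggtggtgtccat
MTHFD1L, chr6:150866236-150866535, plus strand, 1 E-box and 1 ATF4 element: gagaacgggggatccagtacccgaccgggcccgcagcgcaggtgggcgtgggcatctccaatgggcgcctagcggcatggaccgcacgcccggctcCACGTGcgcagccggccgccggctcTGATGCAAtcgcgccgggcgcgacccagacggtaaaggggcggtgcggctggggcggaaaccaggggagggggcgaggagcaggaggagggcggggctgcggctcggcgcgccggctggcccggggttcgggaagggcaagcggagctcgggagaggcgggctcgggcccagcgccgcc

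Among the 8 genes with a window, TGATGNAA was found in 1, MTHFD1L, which has 4 annotated starts and so 4 windows. In the window shown it reads TGATGCAA and begins at position -129 from that start. Windows 2 and 3 of MTHFD1L overlap the one shown and hold the same motifs at other distances from their starts, and window 4 holds neither. Over all genes in the table, 4.46% held it in at least 1 window. The E-box was found in 2 of the 8 genes, in MTHFD1 at -15 and in the MTHFD1L window shown at -154, against 8.77% of all genes. PSAT1 and MTHFD2, the enzymes with the largest differences, had neither motif in their windows, which says only that these letters are not in this window. A match is a description of the sequence and not a bound site.

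The serine synthesis enzymes stood at very different levels. PHGDH (ENSG00000092621, chromosome 1 of GRCh37, 120191034 to 120286841, plus strand), which takes the first step, was listed at 214 TPM in control cells against 159 TPM in PLC-8024-GDF1 cells. Its level in PLC-8024-GDF1 was 74.0% of the control, a log2 change of -0.43, and 34.8% of all genes tested had a lower log2 change. PSAT1 (ENSG00000135069, chromosome 9, 80912041 to 80945009, plus strand), the aminotransferase of the second step, was listed at 114 and 53.1 TPM. Its level was 46.4% of the control, a log2 change of -1.09, and 7.56% of all genes tested had a lower log2 change. PSPH (ENSG00000146733, chromosome 7, 56078744 to 56119297, minus strand), the phosphatase that releases serine, was listed at 21.3 and 17.4 TPM. That is 81.8% of the control and a log2 change of -0.28, the smallest of the 10, and it became 0.00054 with the GC trend removed. The 3 enzymes therefore did not move by the same amount: the TPM ratio of PHGDH to PSAT1 was 1.87 in PLC-8024-CTR and 2.99 in PLC-8024-GDF1, whereas that of PHGDH to PSPH was 10.1 and 9.10. Such ratios within a library do not depend on how the library was scaled. A GC trend, however, does not cancel between genes of different GC content. With that trend removed, the log2 changes of PHGDH and PSAT1 were -0.21 and -0.67, which lie closer together.

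Pseudogenes of these enzymes were listed separately. Of 20 pseudogene rows named after the 10 enzymes, only PSPHP1 reached 1 TPM, at 17.7 TPM in control cells against 13.3 TPM in PLC-8024-GDF1 cells, and the highest value of any other was 0.17 TPM. With the PSPHP1 row added to PSPH, the log2 change of PSPH was -0.34 in place of -0.28. No window of 100 bases from the canonical PSPH transcript occurred in a transcript of another gene. Over the 10 enzymes, the share of such windows found in another gene's transcript was at most 2.05% (AHCY). Only exact matches were sought, so a copy differing at scattered bases would be missed. How reads were divided between PSPH and PSPHP1 was not tested.

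The enzymes that use serine to charge folate differed between compartments in level more than in change. SHMT2 (ENSG00000182199, chromosome 12, 57623356 to 57628718, plus strand), the mitochondrial form, was listed at 202 TPM in control cells against 148 TPM in PLC-8024-GDF1 cells, 72.9% of the control. SHMT1 (ENSG00000176974, chromosome 17, 18231174 to 18266877, minus strand), its cytosolic counterpart, was listed at 21.4 and 13.8 TPM, 64.6% of the control. Their log2 changes were -0.45 and -0.59, and neither passed 2-fold. SHMT2 was thus at 9.47 times the TPM of SHMT1 in PLC-8024-CTR and at 10.7 times in PLC-8024-GDF1.

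The folate enzymes after SHMT differed by unequal amounts within the mitochondrion. MTHFD2 (ENSG00000065911, chromosome 2, 74413299 to 74444692, plus strand), the mitochondrial dehydrogenase and cyclohydrolase that is abundant in embryonic and tumour cells, was listed at 29.2 TPM in control cells against 10.3 TPM in PLC-8024-GDF1 cells. Its level was 35.1% of the control, a log2 change of -1.42, and 3.76% of all genes tested had a lower log2 change. MTHFD1L (ENSG00000120254, chromosome 6, 151186815 to 151423023, plus strand), which releases formate from the same mitochondrial route, was listed at 30.6 and 23.7 TPM, 77.2% of the control and a log2 change of -0.36. The pair had near-equal TPM in PLC-8024-CTR, with 1.05 times as much MTHFD1L as MTHFD2, and 2.30 times as much in PLC-8024-GDF1. MTHFD1 (ENSG00000100714, chromosome 14, 64854749 to 64930175, plus strand), which holds the corresponding activities in the cytosol, was listed at 43.7 and 32.0 TPM, a log2 change of -0.44. The TPM ratio of MTHFD2 to MTHFD1 was 0.67 in PLC-8024-CTR and 0.32 in PLC-8024-GDF1, while that of MTHFD1L to MTHFD1 was 0.70 and 0.74. These ratios hold the GC trend of the library. With it removed, the log2 changes of MTHFD2, MTHFD1L and MTHFD1 were -0.995, -0.12 and -0.12. MTHFD2L, the paralog of MTHFD2 and not one of the 10, was listed at 6.70 and 6.40 TPM and was named after its values were seen.

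Of the methionine cycle, AHCY (ENSG00000101444, chromosome 20, 32868074 to 32899608, minus strand) had the highest TPM of the 10 enzymes in both libraries, at 322 in PLC-8024-CTR and 235 in PLC-8024-GDF1. Its level was 72.9% of the control, a log2 change of -0.45. MAT2A (ENSG00000168906, chromosome 2, 85766291 to 85772404, plus strand) was listed at 110.2 and 68.9 TPM, 62.5% of the control and a log2 change of -0.67, the lowest log2 change as deposited after those of MTHFD2 and PSAT1. With the GC trend removed it was -0.31, and SHMT1, SHMT2 and AHCY were lower. The gene GGCX overlaps MAT2A by 562 bases on the opposite strand and was listed at 42.5 and 25.1 TPM. Whether reads were counted by strand is not given in the sources used here, so reads from that overlap cannot be told apart. Every other overlapping gene with a value had under 5 TPM in both libraries.

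In the order of TPM, AHCY, PHGDH and SHMT2 were the highest in both libraries, and 6 of the 10 enzymes held the same place. PSAT1 moved from place 4 to place 5, changing places with MAT2A. MTHFD2 moved from place 8 to place 10, below SHMT1 and PSPH. The spread over replicates is unknown, so neighbours in this order, such as PSPH and SHMT1 at 21.3 and 21.4 TPM in PLC-8024-CTR, cannot be ranked.

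**Figure D2:**
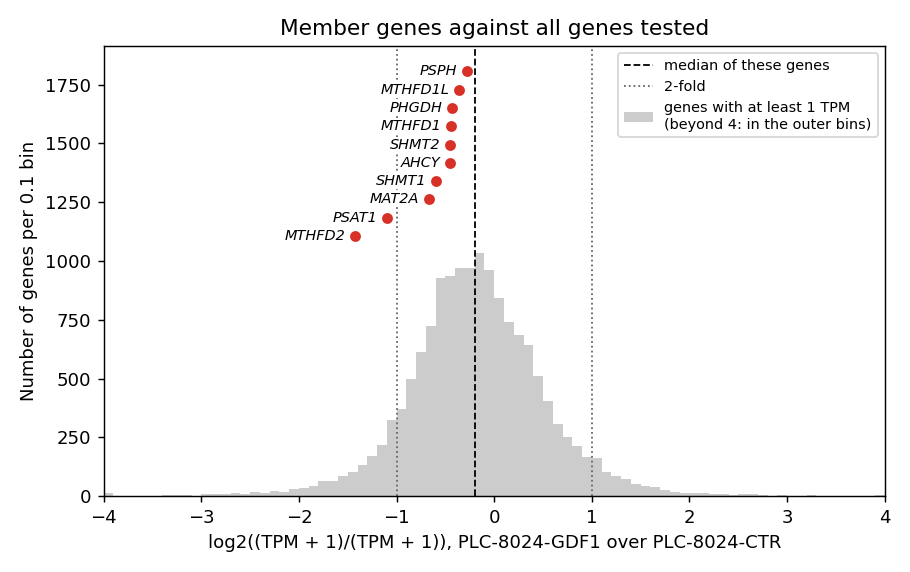
Number of genes (y axis) per 0.1 step of log2 change (x axis) for the 14929 genes with at least 1 TPM, with the 10 enzymes as points above, their height being arbitrary. With TPM as deposited all 10 points lie left of the dashed median at -0.20, and MTHFD2 and PSAT1 lie left of the dotted 2-fold line at -1.

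The change also followed base composition across the library, which bears on the enzymes with the largest differences. When 11792 protein-coding genes were sorted by the GC content of their longest transcript and cut into 5 equal groups, the median log2 change was -0.48 in the group of lowest GC and 0.11 in that of highest GC. MTHFD2 and PSAT1 had the lowest GC content of the 10 enzymes, 42.2% and 42.5%. Protein-coding genes within 2 percentage points of them had median log2 changes of -0.43 and -0.42, and MTHFD2 and PSAT1 lay -0.997 and -0.67 from these. SHMT2 and AHCY had the highest, 57.0% and 56.2%, and lay -0.35 and -0.33 from genes of like GC content. PSPH lay at the median of such genes (0.0015), and the other 9 enzymes lay below theirs. For PHGDH the GC content was 52.3% in the longest transcript and 58.1% in the canonical one. The part of GC content in these differences was not tested.

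**Figure D3:**
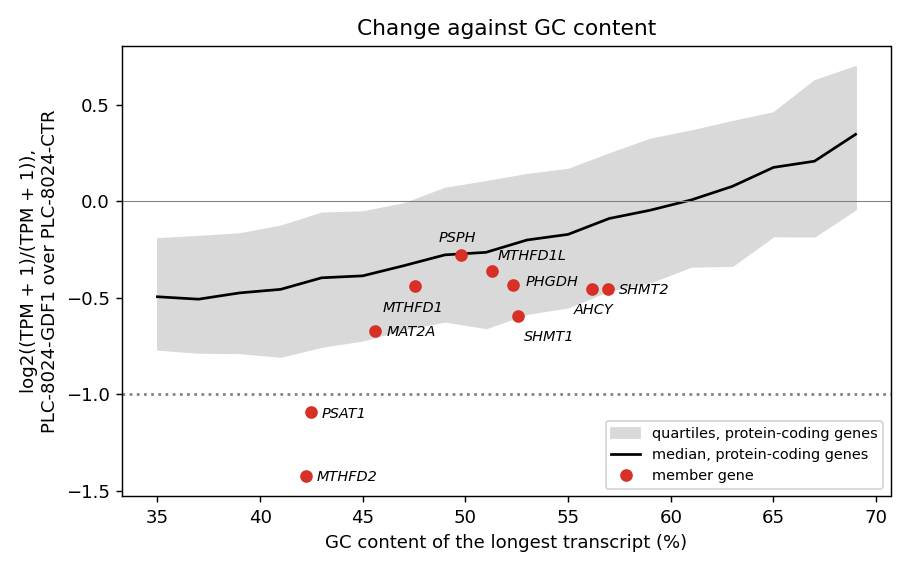
log2 change (y axis) against GC percent of the longest transcript (x axis). The line and band give the median and quartiles of protein-coding genes in steps of 2 percentage points, and the points are the 10 enzymes. MTHFD2 and PSAT1 sit below the band at 42.2% and 42.5% GC, and PSPH sits on the median line.

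Scaling mattered at the 2-fold limit. With TPM of PLC-8024-GDF1 multiplied by 1.15, so that the median plain log2 ratio of genes with at least 5 TPM became 0 (a shift of 0.21), all 10 enzymes were still lower and MTHFD2 alone was over 2-fold lower (-1.23), with PSAT1 at -0.89. That scaling moved the share of higher genes among all genes past 2-fold from 33.4% to 50.4%, and it was 56.6% with the GC trend removed. With the GC trend removed, MTHFD2 was at -0.995 and PSAT1 at -0.67, so no enzyme passed 2-fold, and PSPH had the opposite sign (0.00054).

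**Figure D4:**
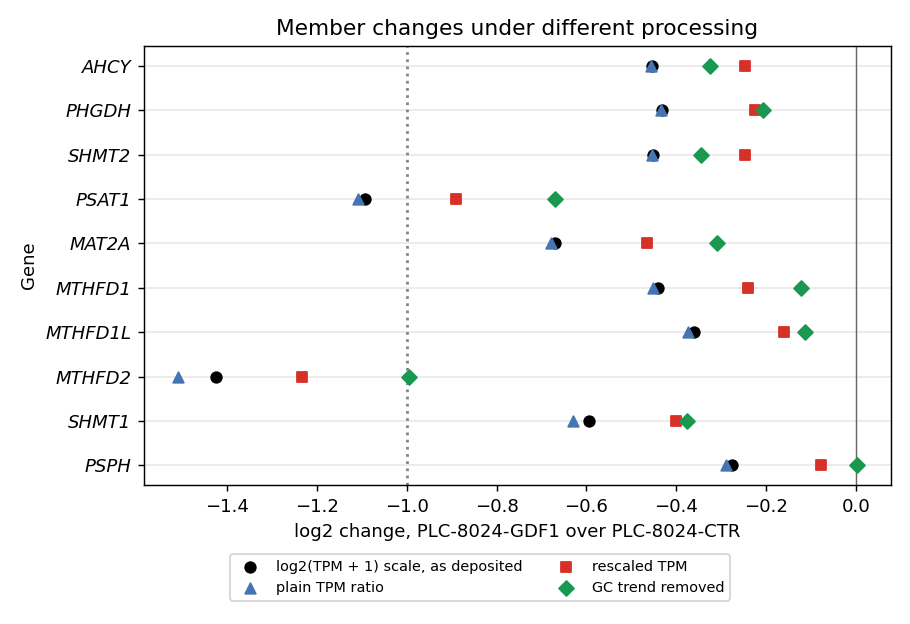
log2 change (x axis) of each enzyme (y axis) on the log2(TPM + 1) scale as deposited, as the plain TPM ratio, with rescaled TPM and with the GC trend removed. The values shift to the right with rescaling and GC removal, MTHFD2 stays furthest left under all 4, and PSPH reaches 0 with the GC trend removed.

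The surrounding pathways were then counted from lists of known members, with the same share of 9.61% of all genes over 2-fold lower as background. Of the 10 serine and glycine genes outside the 10 enzymes with at least 1 TPM, 1 was over 2-fold lower and none higher, with a median log2 change of -0.57. It was DLD, a subunit shared by the glycine cleavage system and other mitochondrial dehydrogenases, at 25.9 and 10.6 TPM. With the GC trend removed, no gene of the list was over 2-fold lower. GLDC, the decarboxylase of glycine cleavage, was listed at 18.7 TPM in control cells against 11.5 TPM in PLC-8024-GDF1 cells.

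Of the 14 other folate genes with at least 1 TPM, 2 were over 2-fold lower and none higher, and the median log2 change of the 14 was -0.11. MTHFS, which returns 5-formyl-folate to the active pool, was listed at 83.4 and 20.2 TPM, a log2 change of -1.99. TYMS, thymidylate synthase, was listed at 69.5 and 28.8 TPM, a log2 change of -1.24. With the GC trend removed, 1 gene of the whole folate list, the 10 enzymes included, was over 2-fold lower. ALDH1L2, a mitochondrial enzyme that oxidises folate carbon, was under 1 TPM in both libraries (0.33 and 0.52 TPM).

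The methionine and transsulfuration list had the lowest median of the pathway lists. Of its 18 genes outside the 10 enzymes with at least 1 TPM, 8 were over 2-fold lower and none higher, and the median log2 change was -0.99. For the whole list, the enzymes included, the 8 became 7 with rescaled TPM and 6 with the GC trend removed. BHMT2, a methyltransferase that makes methionine, was listed at 53.6 TPM in control cells against 11.2 TPM in PLC-8024-GDF1 cells. MTRR, which reactivates methionine synthase, was listed at 7.45 and 1.40 TPM. CTH, the last enzyme of transsulfuration, was listed at 42.4 and 13.1 TPM, while CBS, which precedes it, was listed at 209 and 142 TPM and stayed within 2-fold. ADI1, of the methionine salvage route, was listed at 38.5 and 13.9 TPM.

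The SAM synthetase genes can be set side by side. MAT1A, the hepatocyte form, was listed at 12.6 TPM in control cells against 4.15 TPM in PLC-8024-GDF1 cells, a log2 change of -1.40. MAT2B, the regulatory subunit of MAT2A, was listed at 14.4 and 5.49 TPM, a log2 change of -1.25. MAT2A itself had the highest TPM of the 3 in both libraries and the log2 change nearest 0. METTL16, an RNA methyltransferase that acts on the MAT2A transcript, was listed at 3.60 and 0.43 TPM, and SMS, spermine synthase, the last of the 8, at 103.9 and 49.6 TPM, the latter named after its values were seen.

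Purine synthesis, which takes folate carbon units, had 2 of 13 genes over 2-fold lower and none higher, with a median log2 change of -0.42. They were PAICS, at 35.0 and 9.74 TPM, and GART, at 39.3 and 13.8 TPM, which catalyse steps of the route to inosine monophosphate. Of the 10 SAM-dependent methyltransferases with at least 1 TPM, 1 (TPMT, at 16.2 and 7.49 TPM) was over 2-fold lower, and the median was -0.53. That call was lost with rescaled TPM and with the GC trend removed.

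The regulators of these enzymes were examined last. ATF4, the transcription factor of the amino acid response and a known activator of PHGDH, PSAT1 and MTHFD2, was listed at 822 TPM in control cells against 605 TPM in PLC-8024-GDF1 cells, a log2 change of -0.44. The list of ATF4 and its known targets leaves out the 10 enzymes, so PSAT1 and MTHFD2 are not in its counts. Of its 19 genes with at least 1 TPM, 4 were over 2-fold lower and 1 was over 2-fold higher, and their median was -0.44. The lower ones were CTH, PCK2 (343 and 159 TPM), TRIB3 (121 and 57.6 TPM) and SLC7A11 (3.33 and 1.06 TPM, named after its values were seen). The higher one was NUPR1, a stress-induced nuclear protein, at 239 and 529 TPM. ASNS, asparagine synthetase, was listed at 231 and 127 TPM, a log2 change of -0.86. MYC was listed at 3.76 and 3.94 TPM. The list of MYC and regulators had 6 genes with at least 1 TPM: MYC, MAX, MXI1, MXD4, HIF1A and NFE2L2. Of these only MXI1, a MYC antagonist, passed 2-fold, at 13.2 and 5.56 TPM. With rescaled TPM 1 gene of the ATF4 list and 0 of the MYC list were over 2-fold lower, and with the GC trend removed these were 4 and 0.

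**Figure D5:**
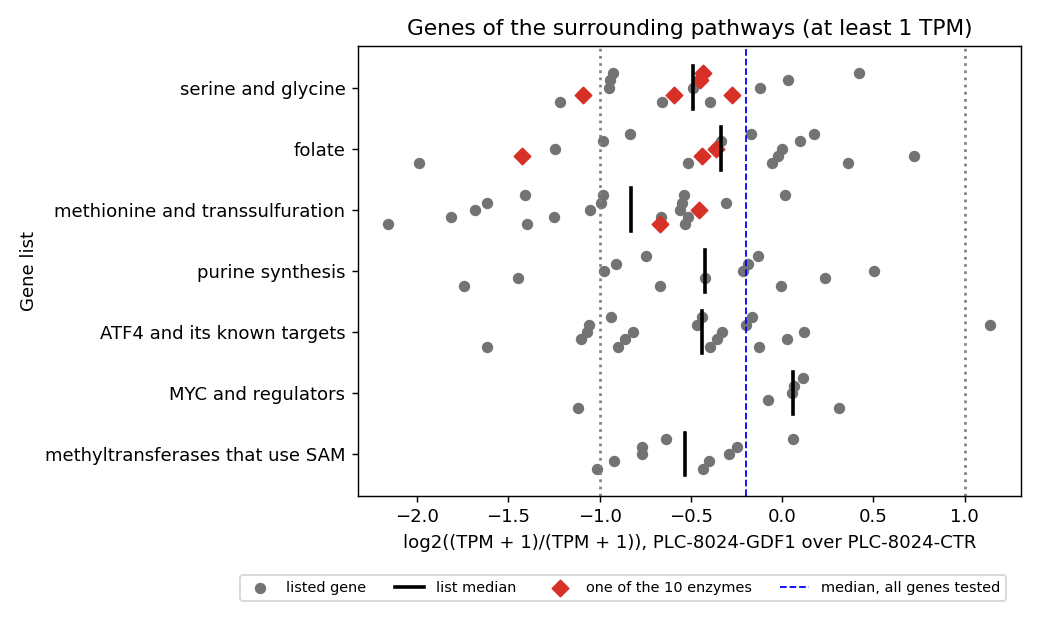
log2 change (x axis) of every listed gene with at least 1 TPM, by pathway list (y axis), with diamonds for the 10 enzymes, circles for other genes, black bars for list medians and a dashed line for the median of all genes tested (-0.20). The methionine and transsulfuration list lies furthest left (median -0.83 with the enzymes included). The median of the list of MYC and regulators, which also holds HIF1A and NFE2L2, lies to the right of the dashed line (0.057).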

How the data were processed

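RNA-seq covered control PLC-8024 cells and the GDF1-overexpressing line, 1 library each. The authors filtered reads with Trimmomatic 0.36, aligned them to hg19 with HISAT2 2.1.0 and obtained gene-level TPM with StringTie 1.3.3b. The deposited values are TPM, which keep no depth (sums of 999990 and 999995), so no counting error can be given. The column heading calls them means although each condition has 1 library, and 0.0001 stands for 0.

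Both tables were joined on the gene identifier. Changes used a pseudocount of 1 TPM, genes reaching 1 TPM in one or both libraries counted as tested, and a log2 change past 1 in size counted as past 2-fold. No test was possible. The 10 genes and the pathway lists were chosen with earlier results of these data known. Genes named besides the 10 were GDF1, CERS1, 12 fixed genes (such as ATF4, MYC and MAT1A), listed genes past 2-fold with at least 5 TPM (at most 5 per list and direction), and pseudogenes with at least 1 TPM. MTHFD2L, SLC7A11 and SMS were named after their values were seen, and GGCX for its overlap with MAT2A. The values of 2 of the fixed genes are not reported here. Cell type markers came from a fixed list. Symbols were taken from the files, with ADSSL1 and ADSS used for ADSS1 and ADSS2.

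Positions and transcripts came from GENCODE 44 on GRCh37, the build of hg19, which held 55726 of the 58174 identifiers. The alternatives were other pseudocounts and minimums, rescaled TPM, a lowess GC trend (span 0.3) subtracted, pseudogene rows added and protein-coding genes alone. Python 3.11.15, numpy 2.4.6, pandas 2.3.3, statsmodels 0.14.6 and matplotlib 3.10.9 were used. The code for the calls was run on simulated data, made from control values of at least 5 TPM with planted changes well past 2-fold and little noise. That run says nothing about the spread between libraries or the GC trend.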

Additional observations from a re-analysis of the deposited data

How the results depend on the processing

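No paired analysis was possible because there is a single library of each kind, and no library could be left out. The direction of 9 of the 10 enzymes held under each of the 5 alternatives, and that of PSPH under 4, turning to 0.00054 with the GC trend removed. The number of enzymes over 2-fold lower, 2 as reported, was 1 with rescaled TPM and 0 with the GC trend removed, and was 2 under the other alternatives, while 0 were higher under each. Both alternatives centre the changes by construction. The median of the enzymes was negative under each alternative. The TPM ratios of SHMT2 to SHMT1, MTHFD2 to MTHFD1 and MTHFD1L to MTHFD1 hardly moved with pseudogene rows added, the largest shift being from 10.7 to 10.6 for SHMT2 to SHMT1 in PLC-8024-GDF1. Little shift was possible, since every pseudogene row other than PSPHP1 was at most 0.17 TPM. The ratios were not recomputed with the GC trend removed.

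Of all genes, 1434 were over 2-fold lower and 720 over 2-fold higher. These were 2315 and 1167 with a pseudocount of 0.1 TPM, and 2437 and 1229 with the plain TPM ratio. With rescaled TPM they were 1022 lower and 1040 higher. With the GC trend removed 788 were lower and 1028 higher. With at least 5 TPM 1041 were lower and 471 higher, and among protein-coding genes 1244 were lower and 479 higher. Of the lists with the enzymes included, the serine and glycine genes over 2-fold lower numbered 2 as reported, 4 with the pseudocount of 0.1 TPM and with the plain ratio, 1 with rescaled TPM and 0 with the GC trend removed. The folate genes numbered 3, then 6 with the smaller pseudocount and with the plain ratio, and 1 with the GC trend removed. The methionine and transsulfuration genes numbered 8, then 10 with the smaller pseudocount and 12 with the plain ratio. They numbered 7 with rescaled TPM, 6 with the GC trend removed and 7 with at least 5 TPM. The purine genes numbered 2, and 5 with the smaller pseudocount and with the plain ratio. The ATF4 list numbered 4, and 1 with rescaled TPM. The MYC list and the methyltransferase list numbered 1 each, and 0 with rescaled TPM and with the GC trend removed. The cause of these shifts was not tested. Without depth, the reliability of genes near 1 TPM is unknown.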
